A study of Mus musculus with 6 samples.

Results

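Solute carriers are membrane proteins that move ions, nutrients, metabolites and metals across the plasma membrane, the mitochondrial inner membrane and the membranes of the endoplasmic reticulum, Golgi and lysosome, using gradients rather than direct ATP hydrolysis. Their genes carry the prefix Slc, a family number and a member number. Many are used mainly in kidney, gut, liver, brain or heart. Alternative splicing of a carrier gene can change its ends or drop a membrane segment, and so alter where the protein sits or whether it is made. Medullary thymic epithelial cells (mTECs) transcribe many genes of peripheral tissues under the autoimmune regulator Aire and show the products to developing T cells, and carriers of other organs are among the genes read in them.

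The solute carrier genes were chosen by symbol, as every gene listed in all 6 libraries whose name is Slc followed by a digit. This gave 40 genes with 68 alternative splicing events, of 2685 genes with 4658 events compared in all. The rule used no measured value. A further 4 Slc genes were listed in some libraries only.

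The groups were primary mouse mTECs carrying hairpins against Raver2 (2 libraries, hairpins sh1 and sh2), mTECs carrying hairpins against Setd2 (2 libraries, sh1 and sh2), and control mTECs carrying a hairpin against bacterial LacZ (Ctr, 2 libraries). Raver2 is a partner of the splicing repressor PTB, and Setd2 is a histone H3 methyltransferase that acts along transcribed genes. All cells were sorted from thymus, grown on human dermal fibroblasts in a fibrin gel, infected with a lentivirus that also encodes GFP, and sorted again 5 days later as live, MHC class II-positive and GFP-positive cells. A knockdown replicate is 1 hairpin, so the spread within a knockdown group holds the difference between hairpins, and hairpins numbered alike for the 2 targets are different sequences. Whether the libraries came from separate animals or cultures is not stated in the labels, and the strain and age of the mice are likewise not given in the sources read here. A p-value below thus weighs a difference against the scatter of 6 libraries, and part of that scatter may be technical.

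The measured value was the inclusion frequency of an event, a fraction from 0 (always skipped) to 1 (always included). Raver2 and Setd2 themselves had no listed event, so the extent of each knockdown could not be checked, and fractions hold no expression level. The cell type could not be checked for the same reason: events were listed for 2 of 10 thymic epithelial markers (Aire and Cd74), 1 of 10 fibroblast markers and 4 of 10 leukocyte markers. Libraries listed 4777 to 4949 events each. The number of reads behind a fraction is unknown, so no counting error can be given. A fraction over a cell population does not tell a change inside cells from a change in which cells contribute.

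The exon of an event is not known here, only its gene and its place in the order of the gene's events, by which it is numbered below. No sequence is therefore shown for an event. By symbol, 39 of the 40 genes were found in GENCODE M21 on mm10, on 16 chromosomes including that of the readthrough gene below, with 8 on chromosome 2. They had 2 to 16 annotated transcripts with a median of 8, against a median of 7 over the genes compared. Slc10a3-ubl4 was found in RefSeq (GRCm38.p6) as a synonym of Gm44504 on chromosome X (74367447 to 74373349).

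Few carrier events had a mean inclusion between 1 in 3 and 2 in 3, although in each library 35 to 42 of the 68 lay between 0.01 and 0.99. Over the 6 libraries, the mean inclusion was above 2 in 3 for 34 of 68 carrier events, against 1583 of all 4658 events. It was below 1 in 3 for 27 carrier events, against 2094 of all events, and in between for 7 (10.3%, against 21.1% of all events). Only 20 events (29.4%) stayed between 0.01 and 0.99 in every library, against 42.9% of all events, and these are called mid-range below. The mean over the 68 events was 0.512 and 0.544 in Raver2 libraries, 0.523 and 0.531 in Setd2 libraries, and 0.536 and 0.526 in Ctr libraries, so the groups overlapped. Of the 40 genes, 25 had 1 event and 15 had 2 to 5.

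**Figure D1:**
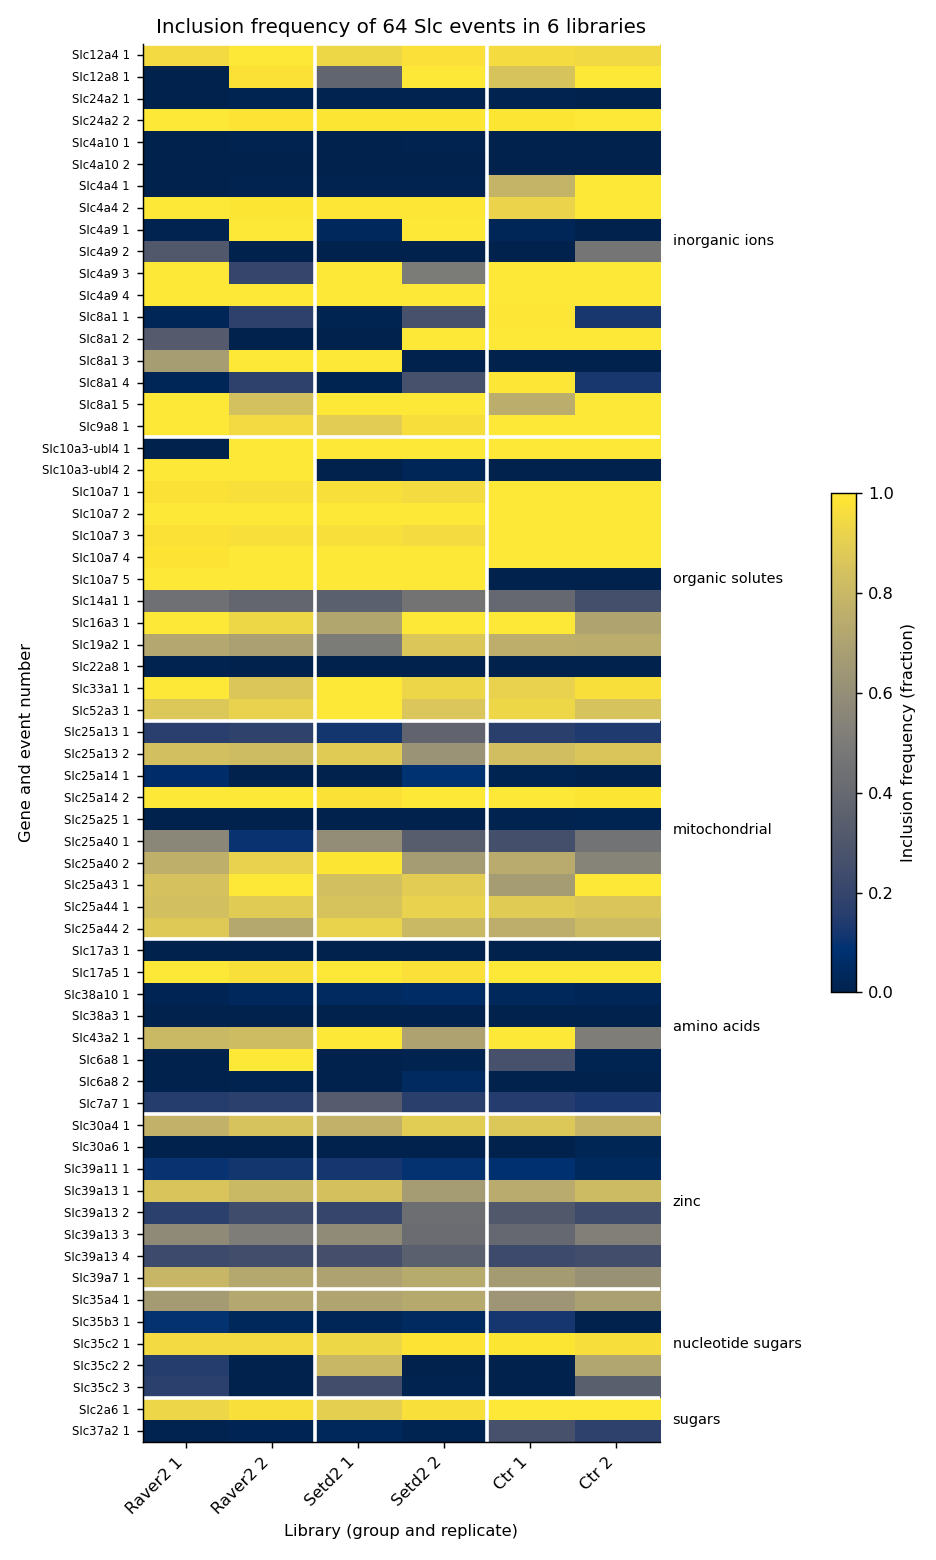
Inclusion frequency (colour, 0 to 1) of 64 Slc events (rows, gene and event number, grouped by what the carriers move) in the 6 libraries (columns). Slc10a7 event 5 and Slc4a4 event 1 split knockdown from Ctr libraries. As matched by row order, Slc10a3-ubl4 event 2 splits Raver2 libraries from the rest. Over all 68 Slc events, the 6 libraries spanned more than 0.1 in 39 (57.4%, against 60.1% of all events).

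Repeated and mirrored events reduced the number of separate measurements. In Slc8a1, events 1 and 4 held equal values in every library, and events 2 and 3 summed to 1 within 0.01. Events 1 and 2 of Slc24a2 and of Slc25a13 also summed to 1 within 0.01 in every library. Events 1 and 3 of Slc10a7 differed by at most 1.04e-06. Each such pair is 1 measurement.

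Libraries of the same group often disagreed. The 2 libraries differed by more than 0.1 in 18 of 68 carrier events (26.5%) under Raver2 knockdown, in 24 (35.3%) under Setd2 knockdown and in 17 in Ctr. Over all events the shares were 22.9% under Raver2 knockdown, 25.5% under Setd2 knockdown and 27.7% in Ctr. The lowest and the highest of the 6 libraries lay more than 0.5 apart in 13 carrier events (19.1%, against 20.6% of all events). In 4 of these a single library stood more than 0.5 away from every other: Ctr library 1 in events 1 and 4 of Slc8a1, Raver2 library 2 in event 1 of Slc6a8, and Raver2 library 1 in event 1 of Slc10a3-ubl4.

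With hairpins against this partner of PTB, inclusion rose in event 5 of Slc10a7 and event 2 of Slc10a3-ubl4, among others, and it fell in event 1 of Slc4a4 and event 1 of Slc25a25, for Raver2 knockdown against Ctr. In all, 5 carrier events passed the test (limma over all events, Benjamini-Hochberg adjusted p under 0.05), 7.35% of the 68, where 2.43% of all events passed. By direction, 3 were higher (1.01% of all events were) and 2 were lower (1.42% of all events were). At an unadjusted p under 0.05, limma gave 4 higher carrier events (5.37% of all events were) and 5 lower ones (6.66% of all events were), or 9 in all (12% of all events). The 4 named calls all have libraries at an end of the scale. In a limma fit of mid-range events alone, 0 of 20 carrier events passed and 2 had an unadjusted p under 0.05, where 10 of all 2000 passed and 281 had an unadjusted p under 0.05. The count of 5 was 2 in the fit of only the 4 Raver2 and Ctr libraries, 2 or 3 without any 1 of the 4 knockdown libraries and 7 without either Ctr library.

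Under Setd2 knockdown against Ctr, inclusion rose in event 5 of Slc10a7, among others, and fell in event 1 of Slc4a4 and event 1 of Slc25a25. In all, 4 carrier events passed, 5.88% of the 68, where 2.23% of all events passed, with 2 higher (0.88% of all events were) and 2 lower (1.35% of all events were). At an unadjusted p under 0.05, limma gave 2 higher carrier events (5.22% of all events were) and 5 lower ones (6.38% of all events were), or 7 in all (11.6% of all events). The limma fit of only the 4 Setd2 and Ctr libraries called 0 of the 68 and 0 of all 4658 events, with 8 and 554 events at an unadjusted p under 0.05. The count of 4 was 1 without any 1 of the 4 knockdown libraries and 6 without either Ctr library. Both knockdowns were set against the same 2 Ctr libraries, so a deviation of those libraries would enter both comparisons.

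The groups did not overlap in 23 carrier events for Raver2 knockdown against Ctr (33.8%, where the same held for 44% of all events), with 10 higher (20.7% of all events were) and 13 lower (23.4% of all events were). They did not overlap in 23 carrier events for Setd2 knockdown against Ctr (33.8%, against 42.5% of all events), with 14 higher (21.2% of all events were) and 9 lower (21.3% of all events were). The share of carrier events without overlap was thus below that of all events in both comparisons, a difference that was not tested. The median size of the difference from Ctr, in either direction, was 0.0262 for Raver2 knockdown and 0.0391 for Setd2 knockdown over the 68 events, against 0.0423 and 0.0412 over all events. Of the 20 mid-range carrier events, 10 had a higher and 10 a lower mean under Raver2 knockdown than in Ctr, while 14 had a higher and 6 a lower mean under Setd2 knockdown. Of all 2000 mid-range events, 974 were higher and 1026 lower under Raver2 knockdown, and 1027 were higher and 973 lower under Setd2 knockdown. Differences of more than 0.1 in either direction were found in 18 events (26.5%) and 17 events (25%), against 29.6% and 30% of all events. Of these, 8 under Raver2 knockdown and 4 under Setd2 knockdown exceeded the gap between libraries within both groups (11.8% and 5.88% of the 68). Over all 4658 events, 606 and 566 had such a difference of more than 0.1 (13% and 12.2%).

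**Figure D2:**
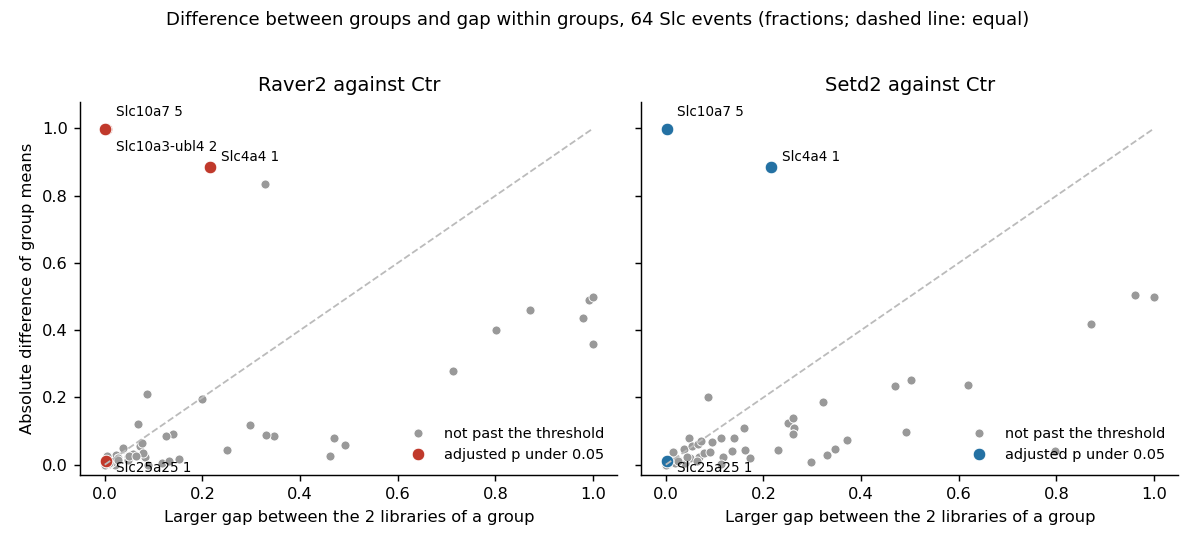
Absolute difference between the knockdown and Ctr means (vertical, fraction) against the larger of the gaps between the 2 libraries of each group (horizontal, fraction) for 64 Slc events, for Raver2 knockdown (left) and Setd2 knockdown (right). Coloured points passed the test, the dashed line marks equality, and 15 of these events under Raver2 knockdown and 14 under Setd2 knockdown lie above it (23.4% and 21.9% of those drawn, against 29.4% and 26.5% of all events).

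Carriers were grouped by family number according to what they move. Among carriers of organic solutes (8 genes, 13 events), the switch between knockdown and Ctr libraries was complete in Slc10a7, a Golgi membrane protein of the bile acid carrier family that is needed for normal skeletal growth (chromosome 8, 78509346 to 78734003, plus strand). Event 5 of Slc10a7 was above 0.99 in both Raver2 libraries, 0.999 and above 0.99 in the Setd2 libraries, and below 0.01 in both Ctr libraries. The groups did not overlap. The difference was 0.999 ± 0.0209 (SE) for each knockdown (limma, adjusted p = 0.00186 for Raver2 and 0.00246 for Setd2). It passed under all 11 other settings for Raver2 and under 10 of 11 for Setd2, the exception being the fit of only the 4 libraries compared (adjusted p = 0.0593).

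The same gene showed a smaller shift in the pair of events 1 and 3. Event 1 of Slc10a7 was 0.977 and 0.972 in Raver2 libraries, 0.969 and 0.954 in Setd2 libraries, and above 0.99 in both Ctr libraries. Both knockdown groups lay below Ctr without overlap, yet the differences of -0.0255 ± 0.00643 (SE) and -0.0384 ± 0.00643 did not pass (limma, adjusted p = 0.274 for Raver2 and 0.132 for Setd2). They passed on the arcsine and logit scales, with adjusted p = 0.0499 and 0.0489 for Raver2, and 0.0339 and 0.0297 for Setd2. Events 2 and 4 of Slc10a7 stayed above 0.98 in all 6 libraries. A full switch in event 5 thus stood beside events of the same gene that moved by less than 0.05.

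Slc10a3-ubl4 is a readthrough of the neighbouring genes Slc10a3, a bile acid carrier relative, and Ubl4a, a ubiquitin-like factor for membrane protein insertion. Its reads cannot be told from those of the genes it spans, so its fractions are uncertain. Event 2 of Slc10a3-ubl4 was above 0.99 in both Raver2 libraries, against 0.000456 and 0.0263 in Setd2 libraries and 0.00191 and 0.000869 in Ctr libraries. As matched by row order, only the Raver2 libraries were high. The difference from Ctr was 0.999 ± 0.0407 (SE) for Raver2 knockdown (limma, adjusted p = 0.0052) and 0.012 for Setd2 knockdown (adjusted p = 1).

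Event 1 of Slc10a3-ubl4 did not follow event 2. It was below 0.01 in Raver2 library 1 and above 0.99 in Raver2 library 2, in both Setd2 libraries and in both Ctr libraries. As matched by row order, the 2 Raver2 hairpins thus gave opposite ends of the scale in event 1 and the same end in event 2. Raver2 library 1 had event 1 near 0 and event 2 near 1. The Setd2 and Ctr libraries had the reverse, event 1 near 1 and event 2 near 0. With these 2 rows exchanged in Raver2 library 1, event 2 would be high in Raver2 library 2 only. Whether the rows were exchanged was not tested. The difference of -0.5 ± 0.367 (SE) from Ctr did not pass (limma, adjusted p = 0.712), and it rested on 1 library: it was -1 without Raver2 library 2 (adjusted p = 0.00285) and 0 without Raver2 library 1 (adjusted p = 1).

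The other carriers of organic solutes did not pass in any comparison, and their events did not switch between the groups. Event 1 of Slc16a3, the lactate exporter of glycolytic cells, was above 0.99 and 0.937 in Raver2 libraries, 0.717 and above 0.99 in Setd2 libraries, and above 0.99 and 0.703 in Ctr libraries, so the groups overlapped. Event 1 of Slc19a2, a thiamine carrier, was 0.726 and 0.688 in Raver2 libraries, 0.499 and 0.87 in Setd2 libraries, and 0.761 and 0.753 in Ctr libraries. The Setd2 hairpins lay on either side of all other libraries here. Slc14a1, the urea carrier of red cells and kidney, ranged from 0.256 to 0.458 over the 6 libraries and Slc52a3, a riboflavin carrier, from 0.849 to above 0.99. Slc33a1, which brings acetyl-CoA into the endoplasmic reticulum, was 0.868 or more in every library, and Slc22a8, an organic anion carrier of the kidney, was below 0.01 in every library.

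Among carriers of inorganic ions (8 genes, 18 events, none of them mid-range), 1 event passed for each knockdown, where 2.43% of all events passed for Raver2 and 2.23% for Setd2. Slc4a4 encodes a sodium bicarbonate cotransporter used in kidney and pancreas (chromosome 5, 88886818 to 89239653, plus strand). Event 1 of Slc4a4 was 0.00056 and 0.0102 in Raver2 libraries, 0.00453 and 0.00513 in Setd2 libraries, and 0.783 and 0.999 in Ctr libraries. All 4 knockdown libraries were near 0 and both Ctr libraries were high, with no overlap. It fell by 0.886 ± 0.0862 (SE) under each knockdown (limma, adjusted p = 0.0349 for Raver2 and 0.0391 for Setd2). The call passed under 4 of 11 other settings for each knockdown. It was lost without any 1 of the 4 knockdown libraries, Raver2 libraries in the Setd2 comparison included. It was also lost in limma on the arcsine scale (adjusted p = 0.0753 and 0.0778) and on the logit scale (0.139 and 0.136). The fit of only the 4 libraries compared lost it as well (limma, adjusted p = 0.128 and 0.138). Event 2 of Slc4a4 was above 0.99 in all libraries but Ctr library 1, where it was 0.922.

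The bicarbonate carrier Slc4a9, which exchanges anions in the kidney, differed widely between the 2 hairpins of each target in events 1 and 3. Event 1 of Slc4a9 was 0.00835 and above 0.99 in Raver2 libraries, 0.0368 and 0.998 in Setd2 libraries, and 0.0256 and 0.000204 in Ctr libraries. The high values were those of the second hairpin of each target, which are different sequences. Event 3 of Slc4a9 was above 0.99 and 0.199 in Raver2 libraries, above 0.99 and 0.498 in Setd2 libraries, and above 0.99 in both Ctr libraries. The same 2 libraries were the low ones. Event 2 of Slc4a9 was 0.311 and below 0.01 in Raver2 libraries, below 0.01 in both Setd2 libraries, and below 0.01 and 0.47 in Ctr libraries, and event 4 was above 0.99 in every library. Both events of Slc4a10, a sodium bicarbonate carrier of neurons, were below 0.01 in every library.

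Slc8a1 encodes the sodium-calcium exchanger of heart muscle (chromosome 17, 81373105 to 81738377, minus strand). Event 2 of Slc8a1 was 0.327 and below 0.01 in Raver2 libraries, below 0.01 and above 0.99 in Setd2 libraries, and 0.999 in both Ctr libraries. The Raver2 libraries lay below Ctr, while the Setd2 libraries lay at both ends of the scale. Neither difference passed, at -0.835 ± 0.387 (SE) for Raver2 and -0.499 ± 0.387 for Setd2 (limma, adjusted p = 0.578 and 0.701). Events 1 and 4 of Slc8a1 were 0.0235 and 0.179 in Raver2 libraries, 0.0149 and 0.269 in Setd2 libraries, and 0.996 and 0.125 in Ctr libraries, so that only Ctr library 1 was high. Event 5 of Slc8a1 was 0.75 or more in every library.

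The remaining ion carriers gave no call. Event 1 of Slc9a8, a sodium-proton exchanger, was above 0.99 and 0.951 in Raver2 libraries, 0.892 and 0.965 in Setd2 libraries, and above 0.99 in both Ctr libraries. The Setd2 libraries lay below Ctr, but their difference of -0.0714 ± 0.0322 (SE) did not pass (limma, adjusted p = 0.553). Event 1 of Slc12a8, a relative of the cation-chloride cotransporters, was 0.000262 and 0.979 in Raver2 libraries, 0.381 and above 0.99 in Setd2 libraries, and 0.853 and above 0.99 in Ctr libraries. Here the first library of each group was the lower one. Slc12a4, a potassium-chloride cotransporter, was 0.936 or more in every library. The 2 mirrored events of Slc24a2, a calcium exchanger of neurons and cones, moved by 0.0102 over the 6 libraries.

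**Figure D3:**
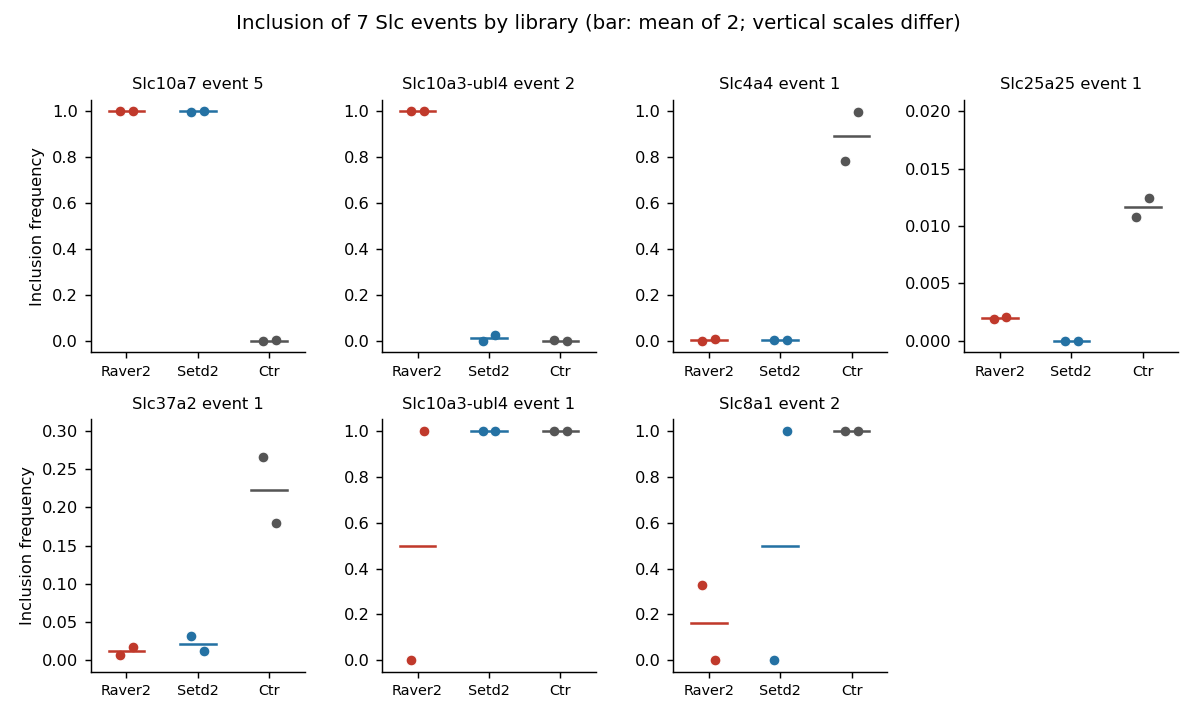
Inclusion frequency (vertical, fraction, with a scale of its own in each panel) of 7 Slc events by group. Points are libraries, bars are means of 2, and the panels show calls against Ctr in Slc10a7, Slc4a4 and Slc25a25, the Raver2-only call in Slc10a3-ubl4 event 2, and uncalled events of Slc37a2, Slc10a3-ubl4 and Slc8a1.

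Among mitochondrial carriers (7 genes, 14 events, 7 of them mid-range), Slc25a25 had 1 lower event under each knockdown, where 1.42% of all events were lower for Raver2 and 1.35% for Setd2. Slc25a25 encodes a calcium-regulated carrier that exchanges ATP-magnesium for phosphate (chromosome 2, 32414487 to 32451445, minus strand). Its event was 0.00193 and 0.00205 in Raver2 libraries, 1.2e-06 and 1.6e-06 in Setd2 libraries, and 0.0108 and 0.0125 in Ctr libraries. The 3 groups did not overlap, but all lay within 0.0125 of full skipping. It fell by 0.00966 ± 0.000937 (SE) under Raver2 knockdown and by 0.0116 ± 0.000937 under Setd2 knockdown (limma, adjusted p = 0.0349 and 0.0254). With no trend of the variance the adjusted p was 0.445 and 0.373, and the call was also lost without any 1 of the 4 knockdown libraries.

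Other mitochondrial carriers varied between libraries of a group. Event 1 of Slc25a40, linked to glutathione import, was 0.561 and 0.0993 in Raver2 libraries, 0.595 and 0.333 in Setd2 libraries, and 0.257 and 0.456 in Ctr libraries. Event 2 of Slc25a40 was 0.764 and 0.914 in Raver2 libraries, 0.991 and 0.669 in Setd2 libraries, and 0.743 and 0.544 in Ctr libraries. The Raver2 libraries were above Ctr in event 2, yet the difference of 0.196 ± 0.15 (SE) did not pass (limma, adjusted p = 0.712), nor did that of 0.186 ± 0.15 for Setd2 (adjusted p = 0.705). Event 1 of Slc25a13, the aspartate-glutamate carrier citrin of the urea cycle, was 0.167 and 0.18 in Raver2 libraries, 0.116 and 0.377 in Setd2 libraries, and 0.168 and 0.14 in Ctr libraries, where only Setd2 library 2 stood out.

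Event 1 of Slc25a44, which carries branched-chain amino acids, was steadier, from 0.836 to 0.915 over the 6 libraries, and its event 2 ranged from 0.727 to 0.921. Slc25a14, a relative of the uncoupling proteins, was below 0.09 in event 1 and 0.978 or more in event 2 in every library. Slc25a43, whose substrate is not established, ranged from 0.67 in Ctr library 1 to above 0.99 in Ctr library 2 and Raver2 library 2.

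Zinc carriers (5 genes, 8 events, 7 of them mid-range) had the largest share of mid-range events of the 7 role groups. None passed the test, where 2.43% of all events passed for Raver2, 2.23% for Setd2 and 0.73% between the knockdowns. Event 1 of Slc39a7, which releases zinc from the endoplasmic reticulum (chromosome 17, 34028269 to 34031682, minus strand), was 0.795 and 0.727 in Raver2 libraries, 0.702 and 0.737 in Setd2 libraries, and 0.665 and 0.616 in Ctr libraries. Both knockdown groups lay above Ctr. The differences were 0.121 ± 0.0372 (SE) and 0.079 ± 0.0372 (limma, adjusted p = 0.369 and 0.572). At an unadjusted p under 0.05, limma gave 1 higher zinc carrier event for Raver2, that of Slc39a7, and 0 for Setd2. Of all events, 5.37% and 5.22% were higher at that threshold.

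Event 1 of Slc39a11, a zinc importer of the same family (chromosome 11, 113244853 to 113650079, minus strand), was 0.1 and 0.115 in Raver2 libraries, 0.118 and 0.0963 in Setd2 libraries, and 0.0792 and 0.0427 in Ctr libraries. The knockdown libraries were the higher ones without overlap, by 0.0469 ± 0.0169 (SE) and 0.0464 ± 0.0169. Neither difference passed (limma, adjusted p = 0.427 and 0.452). Of the 8 zinc carrier events, 2 were higher and 1 lower without overlap for Raver2, and 3 higher and 0 lower for Setd2. Of all events, 20.7% were higher and 23.4% lower for Raver2, and 21.2% higher and 21.3% lower for Setd2. Slc39a13, a zinc carrier of connective tissue cells, had 4 mid-range events, which ranged from 0.672 to 0.859, 0.176 to 0.43, 0.395 to 0.582 and 0.228 to 0.353. In each of these 4 events Setd2 library 2 was the lowest or the highest library or next to it. Event 4 of Slc39a13 was 0.228 and 0.248 in Raver2 libraries, 0.258 and 0.353 in Setd2 libraries, and 0.228 and 0.249 in Ctr libraries (Setd2 difference from Ctr 0.0671 ± 0.0446, SE; limma, adjusted p = 0.699).

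The zinc exporters Slc30a4 and Slc30a6 completed the group. Slc30a4, which supplies zinc to milk, ranged from 0.772 to 0.887 with overlapping groups. Slc30a6, which works in the Golgi, was below 0.01 in all libraries but Ctr library 2, where it was 0.021.

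**Figure D4:**
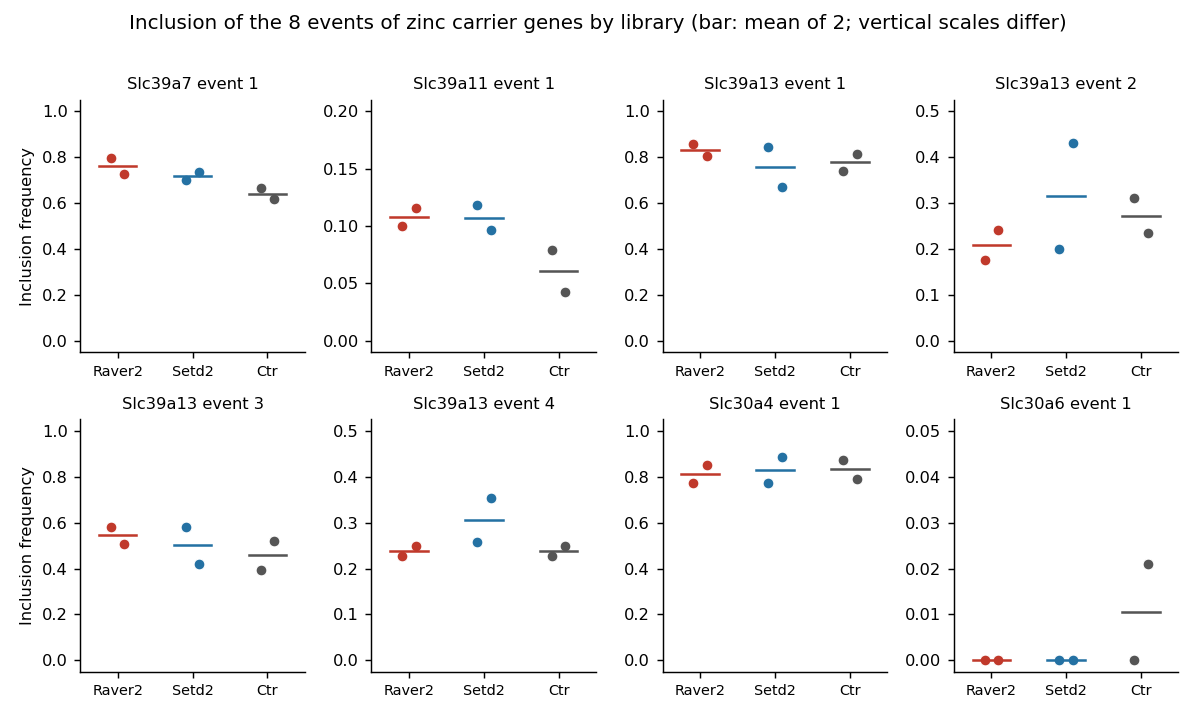
Inclusion frequency (vertical, fraction, with a scale of its own in each panel) of the 8 events of zinc carrier genes by group. Points are libraries and bars are means of 2. In Slc39a7 and Slc39a11 all 4 knockdown libraries lie above both Ctr libraries, while no event of this group passed the test. Of all events, 20.7% were higher than Ctr without overlap for Raver2 and 21.2% for Setd2.

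Sugar carriers (2 genes, 2 events) were both lower in the knockdowns without overlap, and neither passed. Of all events, 23.4% were lower without overlap for Raver2 and 21.3% for Setd2, against the same 2 Ctr libraries. Slc37a2 moves glucose 6-phosphate in the endoplasmic reticulum, chiefly of macrophages (chromosome 9, 37227585 to 37255738, minus strand). Its event was 0.00634 and 0.018 in Raver2 libraries, 0.0319 and 0.012 in Setd2 libraries, and 0.266 and 0.179 in Ctr libraries. The 4 knockdown libraries were low and both Ctr libraries were high. The differences were -0.21 ± 0.0332 (SE) and -0.201 ± 0.0332 (limma, adjusted p = 0.113 and 0.129). They passed without Ctr library 1 (adjusted p = 0.0313 for Raver2 and 0.0373 for Setd2) and without Ctr library 2 (0.0138 and 0.0156), fits in which the lone Ctr library is assumed to vary like the other groups.

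Event 1 of Slc2a6, a glucose carrier relative of lysosomes, was 0.932 and 0.97 in Raver2 libraries, 0.905 and 0.972 in Setd2 libraries, and above 0.99 in both Ctr libraries. The differences of -0.0488 ± 0.0282 (SE) and -0.0615 ± 0.0282 did not pass (limma, adjusted p = 0.696 and 0.559).

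Carriers of nucleotide sugars and related Golgi substrates (3 genes, 5 events) gave 0 calls in limma at the adjusted threshold, in each comparison. The count at an unadjusted p under 0.05 was 0 in each as well. Of all events, 2.43% passed for Raver2, 2.23% for Setd2 and 0.73% between the knockdowns. The unadjusted shares of all events were 12%, 11.6% and 6.12%. Event 1 of Slc35a4, a Golgi carrier, was 0.667 and 0.725 in Raver2 libraries, 0.708 and 0.731 in Setd2 libraries, and 0.635 and 0.69 in Ctr libraries (Setd2 difference 0.0568 ± 0.0354, SE; limma, adjusted p = 0.699). Slc35c2, which supports fucosylation of Notch, had a steady event 1 and unsteady events 2 and 3. Event 1 of Slc35c2 was 0.949 and 0.952 in Raver2 libraries, 0.935 and 0.985 in Setd2 libraries, and 0.99 and 0.967 in Ctr libraries (Raver2 difference -0.0278 ± 0.0203, SE; limma, adjusted p = 0.712). Event 2 of Slc35c2 was 0.156 and 0.000216 in Raver2 libraries, 0.797 and below 0.01 in Setd2 libraries, and 0.00107 and 0.714 in Ctr libraries. The libraries that were high in event 2 were also the higher ones of their groups in event 3. Slc35b3, which brings the sulfate donor into the Golgi, was 0.118 or less in every library.

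Carriers of amino acids and neurotransmitters (7 genes, 8 events) also gave 0 calls in limma at the adjusted threshold, in each comparison. The count at an unadjusted p under 0.05 was 0 in each as well. Of all events, 2.43% passed for Raver2, 2.23% for Setd2 and 0.73% between the knockdowns. The unadjusted shares of all events were 12%, 11.6% and 6.12%. Event 1 of Slc38a10, a member of the glutamine carrier family, was 0.0157 and 0.0361 in Raver2 libraries, 0.0451 and 0.0558 in Setd2 libraries, and 0.0333 and 0.0273 in Ctr libraries. The Setd2 libraries were the highest, by 0.0201 ± 0.00881 (SE) over Ctr (limma, adjusted p = 0.539). Event 1 of Slc7a7, a subunit for cationic amino acids, was 0.153 and 0.173 in Raver2 libraries, 0.33 and 0.17 in Setd2 libraries, and 0.152 and 0.127 in Ctr libraries. Setd2 library 1 alone stood out, and the difference of 0.11 ± 0.061 (SE) from Ctr did not pass (limma, adjusted p = 0.678).

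Event 1 of Slc6a8, the creatine carrier, was below 0.01 and above 0.99 in Raver2 libraries, both below 0.01 in Setd2 libraries, and 0.273 and 0.0119 in Ctr libraries. Event 1 of Slc43a2, a carrier of branched-chain amino acids, was 0.805 and 0.822 in Raver2 libraries, 0.999 and 0.701 in Setd2 libraries, and above 0.99 and 0.509 in Ctr libraries. In both genes the gap inside a group was wider than any gap between group means. Event 2 of Slc6a8 was 0.045 or less in every library. Slc17a5, the sialic acid exporter of lysosomes, was 0.972 or more in every library. Slc17a3, a renal urate and phosphate carrier, and Slc38a3, a glutamine carrier, were below 0.01 in every library.

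The comparison of Raver2 knockdown with Setd2 knockdown sets the targets against each other. Event 2 of Slc10a3-ubl4 was the 1 carrier event that passed, higher under Raver2 knockdown by 0.987 ± 0.0407 (SE; limma, adjusted p = 0.0097). That is 1.47% of the 68 events, against 0.73% of all events, with 1 higher (0.408% of all events were) and 0 lower (0.322% of all events were) in limma. No other carrier event had an unadjusted p under 0.05, where 6.12% of all events did (3.01% higher and 3.11% lower). The call passed under each of the 11 other settings that took the libraries as unpaired. All of these settings kept the matching by row order, on which the value of Raver2 library 1 in this gene depends. The groups did not overlap in 13 events (19.1%, against 33.8% of all events), with 6 higher (15.3% of all events were) and 7 lower (18.4% of all events were).

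The other events tested between the targets did not pass, which does not show that the targets act alike. Slc25a25 was higher under Raver2 knockdown than under Setd2 knockdown by 0.00199 ± 0.000937 (SE; limma, adjusted p = 0.964). Event 1 of Slc10a7 was higher under Raver2 knockdown by 0.0129 ± 0.00643 (adjusted p = 0.964). Slc38a10 was lower under Raver2 knockdown by a difference of -0.0245 ± 0.00881 (adjusted p = 0.837), and event 4 of Slc39a13 by -0.0676 ± 0.0446 (adjusted p = 0.964). Without Raver2 library 2, the count in this comparison was 2 of 68, with event 1 of Slc10a3-ubl4 as the second (difference -1, adjusted p = 0.00287), while without Raver2 library 1 that difference was 0 (adjusted p = 1).

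Other membrane transport genes were counted beside the carriers. ATP-driven pumps and ABC transporters (18 genes, 27 events) gave 1 higher and 1 lower event under each knockdown, where 2.43% of all events passed for Raver2 and 2.23% for Setd2. The lower one was Atp6v1c2, a subunit of the proton pump of acid-secreting epithelia, at 0.00191 and 0.00179 in Raver2 libraries, 0.00529 and 0.00965 in Setd2 libraries, and 0.999 and 0.997 in Ctr libraries (limma, adjusted p = 0.0052 for Raver2 and 0.00583 for Setd2). The higher one was event 1 of Abcc9, a regulatory subunit of potassium channels, at above 0.99 in all 4 knockdown libraries against 0.961 and 0.965 in Ctr libraries (adjusted p = 0.025 and 0.0281). Carriers with other symbols (Sfxn3 and Nipa2, 5 events) gave 0 calls in limma in each comparison. At an unadjusted p under 0.05 they gave 1 higher and 1 lower event for Raver2, 0 for Setd2 and 1 lower between the knockdowns. Partners and regulators of carriers (6 genes, 11 events, among them Bsg and Wnk1) also gave 0 calls in limma in each comparison. Their unadjusted counts were 0 for Raver2, 1 for Setd2 and 1 between the knockdowns. Between the knockdowns, 0.73% of all events passed. The unadjusted shares of all events were 12% for Raver2, 11.6% for Setd2 and 6.12% between the knockdowns.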

How the data were processed

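The authors deposited 1 table per library, in which each alternative splicing event has a gene symbol and an inclusion frequency, a fraction between 0 and 1. The tools named are TopHat2, Cufflinks and Trimmomatic 0.39, and the build mm10, per the submitters' processing notes. The inclusion formula and any coverage filter were not given in the sources used here. Thin coverage and amplification from few cells can push fractions towards 0 or 1.

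Events were matched between libraries by gene and row order within the gene. In the 15 Slc genes with several events, the mean absolute difference between libraries was 0.103 to 0.25 at the same place and 0.42 to 0.535 with the order shifted by 1 place.

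limma 3.58.1 (R 4.3.3) modelled the fractions of all 6 libraries by group, with a variance trend and two-sided contrasts, with Benjamini-Hochberg adjustment over 4658 events and a threshold of 0.05. The analysis was tested on simulated data, with changes placed only in Raver2 libraries and only in events of middling mean inclusion. Switches between the ends of the scale and small shifts near 0 were not simulated. Alternatives were the arcsine and logit scales, no trend, only the 4 libraries compared, subsets of events, leaving out each library, and a replicate block. Tables were read with Python 3.11.15 and pandas 2.3.3.

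The members, role groups and lists were chosen with earlier results of these data known. The rule for naming genes took every Slc event past the threshold, the 12 higher and 12 lower genes by moderated t in each comparison, the genes named in the choice of members, the 6 steadiest mid-range events, and genes with at least 4 events; the remaining Slc genes are named so that every member is accounted for, after their values were seen. Results for 1 gene are not reported here and it is left out of the figures, but it stays in the counts.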

Additional observations from a re-analysis of the deposited data

How the results depend on the processing

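Slc counts are given with counts over all events beside them. With only the 4 libraries compared, limma called 2 Slc and 75 events for Raver2 against Ctr, and 0 Slc and 0 events for Setd2 against Ctr (8 and 554 at an unadjusted p under 0.05). Among mid-range events alone, it called 0 Slc and 10 events for Raver2 against Ctr, 0 and 6 for Setd2 against Ctr, and 0 and 0 for Raver2 against Setd2. At an unadjusted p under 0.05 there were 2 Slc and 281 events for Raver2, 1 and 285 for Setd2, and 0 and 107 between the knockdowns. Among genes with 1 event, which need no assumption on order, it called 1 Slc and 38 events for Raver2, 1 and 37 for Setd2, and 0 and 12 between the knockdowns. Leaving out 1 library gave 2 to 7 Slc and 74 to 291 events for Raver2 against Ctr, 1 to 6 and 48 to 279 for Setd2 against Ctr, and 1 to 2 and 46 to 119 between the knockdowns. In these fits, every Slc count under 4 against Ctr came from leaving out a knockdown library. Where 1 library is left in a group, it is assumed to vary like the other groups. The cause of these changes was not tested. The depth behind a fraction is unknown and may differ between libraries.

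For single events, 35 tested differences were recomputed under the alternatives, giving 418 values. Of these, 378 stayed on the same side of the threshold with no change of sign, 28 fell short of the threshold, 10 newly passed and 2 reversed. Among the 378, event 1 of Slc10a3-ubl4 had a difference of 0 without Raver2 library 1, against Ctr and against Setd2. With 1 library left out, event 2 of Slc10a3-ubl4 in Setd2 against Ctr ranged from -0.00093 to 0.0249, and event 2 of Slc8a1 in Setd2 against Ctr from -0.999 to 0.00083; neither passed in any of these fits.

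The hairpin numbers name different sequences for Raver2 and Setd2, so they do not pair the libraries; deviations of hairpins with the same number correlated at 0.0146 across events. With the number as a replicate block in the 4 knockdown libraries, limma called 0 Slc and 0 of all events between the knockdowns (2 and 265 at an unadjusted p under 0.05), and the adjusted p of event 2 of Slc10a3-ubl4 was 0.504.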

Other observations

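Slc genes listed in some libraries only were left out of the comparisons. Slc6a18, a kidney carrier of neutral amino acids, was listed in Setd2 library 1 and in both Ctr libraries, and in neither Raver2 library. Its event 2 was 0.2 in Setd2 library 1, against 0.183 and 0.121 in Ctr libraries, and its event 1 was below 0.01 in each of these. Slc6a15, a neutral amino acid carrier of the brain, was 0.0127 in Raver2 library 1, 0.00546 and 0.00358 in Setd2 libraries, and 0.00518 and 0.988 in Ctr libraries, so that Ctr library 2 alone was high. Slc26a5, the motor protein of outer hair cells, showed the same library apart: its event 2 was 0.00669 and 0.00697 in Raver2 libraries, 0.021 in Setd2 library 2, and 0.0681 and above 0.99 in Ctr libraries. Slc17a1, a renal phosphate and urate carrier, was below 0.01 in each of the 4 libraries that listed it.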
